A study of Mus with 2 samples.

Results

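The GDNF-RET signal that makes the ureteric bud branch was followed through 7 genes of the newborn mouse kidney: Gdnf, Ret, Gfra1, Etv4, Etv5, Spry1 and Spry2. They were taken by symbol, and all 7 were found among the 28693 features counted. RNA was counted in single cells of kidneys collected at P0 with the genotype Rbpj c/- ; Foxd1cre/+. Foxd1Cre, active in the stromal lineage, was used to delete the floxed copy of Rbpj in the renal interstitium, and the genotype writes the other copy as a null allele, which would be shared by all cells. Rbpj encodes the DNA-binding partner of Notch. The series names 4 libraries, 2 controls and 2 mutants, and the controls were not analysed here. All comparisons are therefore between cell types inside mutant kidneys, and none measures an effect of the deletion. The labels do not say whether replicates 1 and 2 came from separate animals, so p-values cannot be said to measure spread between animals. They rest on how much differences between cell types varied between these 2 samples, pooled over the fitted types.

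GDNF is secreted by the mesenchyme around the branching ureteric epithelium. It binds the co-receptor GFRA1, and the complex activates the receptor tyrosine kinase RET in the epithelial tip. RET signalling raises the ETS transcription factors ETV4 and ETV5, while Sprouty proteins restrain the pathway from inside the receiving cell. FGF receptors feed into the same ETS factors and Sprouty genes, in the nephron lineage as well as in the bud.

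Cells were barcodes with at least 2000 unique molecular identifiers (UMIs, counts of captured RNA molecules) and at most 10% mitochondrial UMIs, 6220 in replicate 1 and 5149 in replicate 2. The 7 genes held 28616 and 20051 UMIs in them. Median depth was 11987.5 and 12307 UMIs per cell, and 6 barcodes occurred in both libraries. Each cell was placed in a type by marker genes that exclude the 7, and 16.9% and 17.1% of cells met no type's rule. Names such as stroma or ureteric tip rest on markers alone and mean stroma-like or tip-like. In the stroma, Rbpj stood at 29.2 and 28.0 CPM (UMIs of the gene relative to all UMIs of the group, scaled to a common total), against 46.6 and 47.3 CPM over all kept cells. Counts of 3′ ends do not show whether those transcripts carry the deletion.

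The stroma comprised 1403 and 1169 cells in replicates 1 and 2, and 601 and 513 of them met the cortical gate. That gate asked for at least 2 of 4 cortical stroma markers (Foxd1, Ntn1, Fibin, Aldh1a2). It also asked for more of these than of the medullary stroma markers. Nephron progenitors, the Six2 and Cited1 cells that cap the tips, numbered 888 and 923. Ureteric epithelium was divided into tip (30 and 33 cells), stalk (97 and 81) and cells that met neither rule (30 and 28). Distal tubule, mural and neural gates held fewer than 20 cells in a library and were not fitted. The tip cells of replicate 1 were deeper, with a median of 51638.5 UMIs against 19929 in replicate 2, and the part of this gap in the tip values was not tested. Neurons and glia, other known users of RET, were nearly absent: the neural gate held 0 cells in replicate 1 and 1 cell in replicate 2, and Sox10, a marker of glia, had 0 UMIs over all kept cells.

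Gdnf, the ligand (ENSMUSG00000022144, chr15:7810048-7837580, GRCm38), was highest in the stroma. Stromal cells of replicates 1 and 2 held 64.0 and 66.4 CPM of Gdnf, from 1018 and 817 UMIs. Nephron progenitors held 27.5 and 19.3 CPM, from 661 and 397 UMIs, and the early nephron held 3.73 and 3.26 CPM. The 2 stromal values thus lay above both progenitor values, and the progenitor values above both early nephron values. Every other fitted type was at or below 1.36 CPM in both libraries. The tip had 1 Gdnf UMI in replicate 1 and 0 in replicate 2, which allows up to 2.42 CPM there by a limit of 3 counts. Summed over both libraries, stromal Gdnf per UMI was 217 times that of the tip, with a counting interval of 39.0 to 8595 because the tip had a single count.

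**Figure D1:**
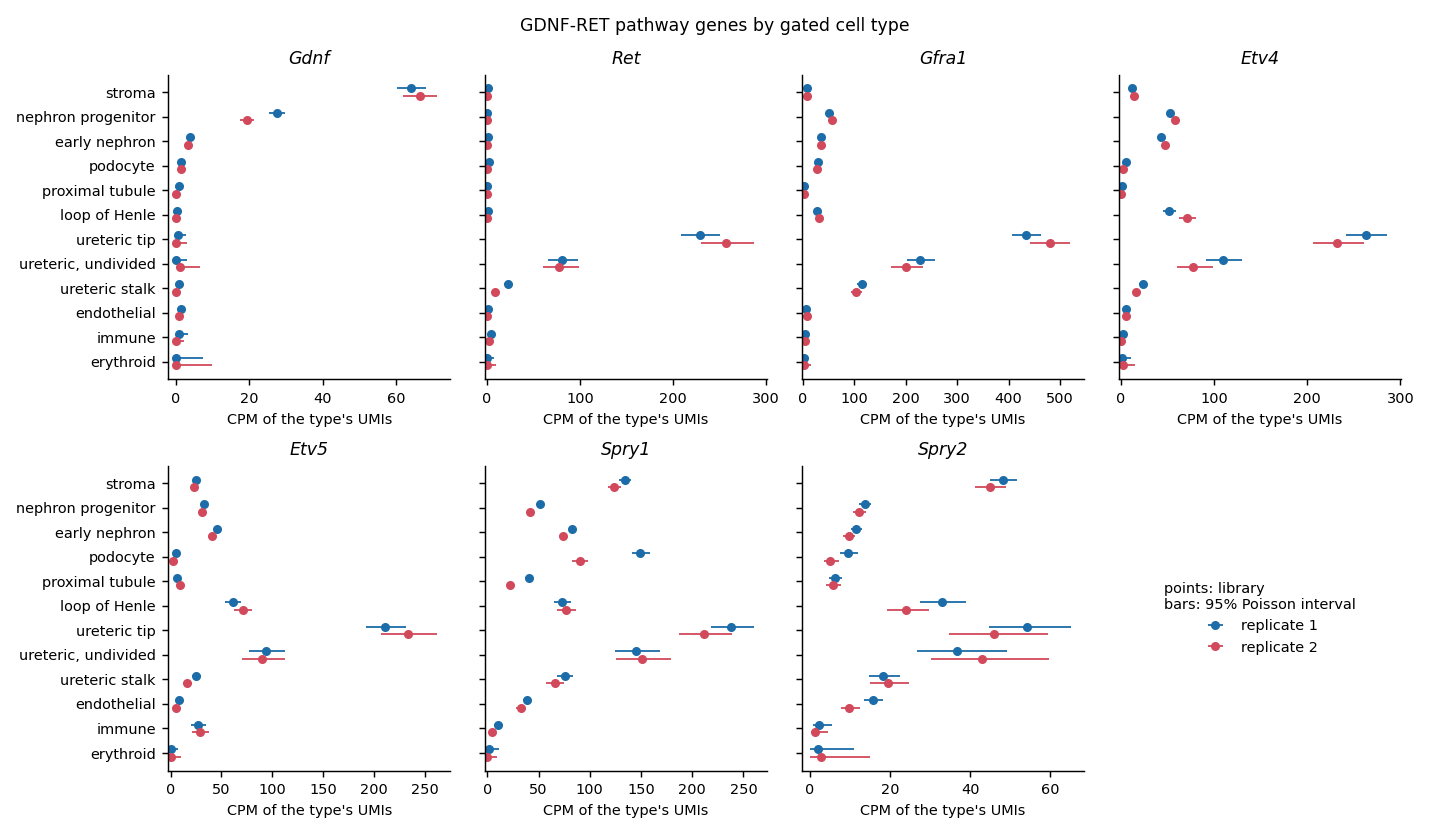
Level of each of the 7 genes (CPM of the type's summed UMIs, linear axis) in 12 gated cell types. Each point is a library and each bar its exact 95% Poisson interval, which covers counting error only. Gdnf peaks in the stroma at 64.0 and 66.4 CPM, and Ret, Gfra1, Etv4, Etv5 and Spry1 peak in the ureteric tip. For Spry2 the ranges of tip (54.2 and 45.9 CPM) and stroma (48.2 and 44.9 CPM) overlap.

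In the quasi-likelihood test of edgeR, with p-values adjusted (Benjamini-Hochberg) over all 15139 genes, Gdnf was higher in stroma than in nephron progenitors by 1.44 ± 0.14 (SE) on the log2 scale, with an adjusted p of 2.3e-08. The difference was 1.16 in replicate 1 and 1.73 in replicate 2. The libraries differed in the progenitors rather than in the stroma: the 95% counting intervals of the progenitor level were 25.4 to 29.6 and 17.5 to 21.3 CPM. Stroma carried 53.1% and 60.5% of all Gdnf UMIs in kept cells, and nephron progenitors 34.5% and 29.4%. Markers of the nephron progenitor list, 8 genes, summed to 102 and 90.8 CPM in stroma against 1911 and 2016 CPM in the progenitors, with no marker at 0. Stroma markers, 7 genes, summed to 578 and 685 CPM in the progenitors against 6338 and 6864 CPM in stroma, again with none at 0. The part of this mixing in the Gdnf difference was not tested.

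Within the stroma, Gdnf followed the cortical markers. Cortical stroma held 116 and 121 CPM of Gdnf, medullary stroma 8.41 and 5.93 CPM, and the remaining stroma 26.3 and 25.9 CPM. Stromal cells with 0 of the 4 cortical markers held 6.98 and 5.28 CPM. The level was 36.8 and 41.0 CPM with 1 marker, 88.3 and 90.2 CPM with 2, and 144 and 164 CPM with 3. With all 4 markers it was 198 CPM in replicate 1 and 151 CPM in replicate 2, where the counting interval overlapped that of cells with 3. Median depth ranged only from 8781 to 10895 UMIs across these stromal groups. Cells with 0 markers were thus below nephron progenitors of the same library, and cells with 1 or more were above them.

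Cortical stroma exceeded the other stromal cells, medullary cells included, by 2.53 ± 0.15 (SE) on the log2 scale for Gdnf (adjusted p = 6.7e-10, edgeR quasi-likelihood test over 15290 genes). It exceeded nephron progenitors by 2.30 ± 0.14 (SE), with an adjusted p of 8.3e-12 in the same edgeR fit. A Gdnf UMI was found in 59.6% and 60.4% of cortical stromal cells, at median depths of 10643 and 9783 UMIs. The share in nephron progenitors was 35.0% and 25.5%, with 15742 and 14307 UMIs in the median cell. After each cell was thinned to 4000 UMIs, the shares were 33.5% and 34.1% in cortical stroma and 9.75% and 7.51% in progenitors. Among types that should lack the gene, the share was 1.39% and 0.956% in endothelial cells, at median depths of 8723 and 9241 UMIs, and 1.35% and 1.38% in podocytes. It was 0 in the 62 and 53 erythroid cells, which allows up to 4.84% and 5.66% by the same limit of 3 counts. Thinning left out 7 and 12 cortical stromal cells and 6 and 4 progenitors.

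**Figure D2:**
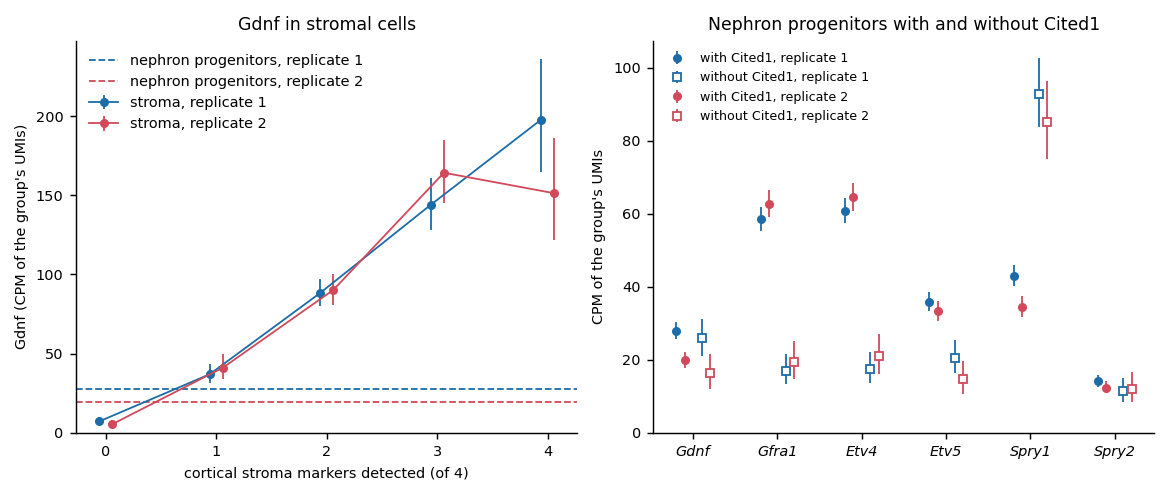
Left, Gdnf level (CPM) in stromal cells by the number of cortical stroma markers they carry, with dashed lines at the nephron progenitor level of each library. Right, level (CPM) of 6 of the genes in nephron progenitors with and without Cited1; points are libraries and bars 95% Poisson intervals. Gdnf climbs from 6.98 and 5.28 CPM to 198 and 151 CPM on the left, and on the right Gfra1 and Etv4 are lower, and Spry1 higher, without Cited1.

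Nephron progenitors were then divided by Cited1, a marker of the uninduced progenitor state, counted as present at 100 CPM or more in the cell. Gdnf was 27.8 and 19.8 CPM with Cited1 and 25.8 and 16.3 CPM without it. The ratio over both libraries was 1.10, with a counting interval of 0.930 to 1.32 that includes no difference. Gfra1 behaved otherwise, at 58.5 and 62.6 CPM with Cited1 and 16.9 and 19.3 CPM without it. The Etv4 level was 60.7 and 64.5 CPM against 17.4 and 21.0 CPM, and that of Etv5 was 35.8 and 33.2 CPM against 20.4 and 14.6 CPM. Spry1 ran the opposite way, at 42.9 and 34.5 CPM with Cited1 and 92.8 and 85.2 CPM without it. Spry2 was 14.1 and 12.3 CPM with Cited1 and 11.3 and 11.9 CPM without it. Over both libraries the ratio with to without Cited1 was 3.37 (2.81 to 4.06) for Gfra1, 3.30 (2.77 to 3.96) for Etv4 and 1.93 (1.60 to 2.33) for Etv5. It was 0.435 (0.396 to 0.478) for Spry1 and 1.15 (0.908 to 1.47) for Spry2. These intervals cover counting error only, and the split was chosen with the levels in view, so it carries no test.

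In the next step of the lineage, 5 of the 7 genes were called between nephron progenitors and early nephron, against 47.0% of all genes. Gdnf was higher in the progenitors by 2.92 ± 0.18 (SE) on the log2 scale (adjusted p = 4.4e-11, edgeR quasi-likelihood test). Gfra1 was also higher in progenitors, by 0.79 ± 0.09 (SE), and Spry1 was lower, by -0.56 ± 0.14 (SE), with adjusted p of 4.7e-07 and 0.0022 in the edgeR fit. Etv4 and Spry2, at 0.49 and 0.48, were called with adjusted p of 0.009 and 0.0069, and both calls were lost with clusters in place of the gate (adjusted p of 0.38 and 0.26, edgeR). Etv5 stood at -0.25 with an adjusted p of 0.15, and was called as lower in progenitors when cells were clustered (-0.59, adjusted p of 1.6e-04, edgeR).

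Ret, the signalling receptor (ENSMUSG00000030110, chr6:118151748-118197744), was a gene of the ureteric epithelium. Tip cells held 229 and 257 CPM of Ret, from 481 and 319 UMIs. Cells that met neither the tip nor the stalk rule held 80.1 and 77.8 CPM, and the stalk 22.3 and 8.39 CPM, from 110 and 29 UMIs. The 3 groups did not overlap, in the order tip, undivided, stalk. All other fitted types were at or below 3.75 CPM, and nephron progenitors had 4 and 3 Ret UMIs in all. Ureteric cells carried 79.8% and 90.2% of Ret UMIs, and cells without a type most of the rest, at 11.7% and 6.33%. Tip Ret per UMI was 1525 times the nephron progenitor level over both libraries (counting interval 737 to 3806).

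The tip exceeded the stalk in Ret by 3.96 ± 0.35 (SE) on the log2 scale, with an adjusted p of 8.9e-08 by edgeR's quasi-likelihood test. The difference was 3.36 in replicate 1 and 4.86 in replicate 2, and here the libraries differed in the stalk. When each cell counted equally, whatever its depth, mean Ret was 237 and 214 CPM in the tip and 13.3 and 11.4 CPM in the stalk. The stalk values of the libraries were then close. A Ret UMI was found in all 30 tip cells of replicate 1 and in 84.8% of those of replicate 2, against 22.7% and 16.0% of stalk cells. Thinned to 4000 UMIs, the shares were 70.0% and 51.5% in the tip and 4.17% and 3.75% in the stalk. Only 0.143% and 0.257% of stromal cells had a Ret UMI, at median depths of 9880 and 9435 UMIs. Stalk markers, 8 genes, summed to 129 and 65.3 CPM in the tip and 2651 and 2675 CPM in the stalk. Tip markers, 6 genes, summed to 737 and 891 CPM in the tip and 63.6 and 41.4 CPM in the stalk. All the tip markers were found in the stalk of replicate 1, and 1 was at 0 in replicate 2. The stalk also held markers of other segments: distal tubule markers, 6 genes with none at 0, summed to 400 and 272 CPM there and 55.2 and 21.8 CPM in the tip. Clustering placed 35 of the 178 stalk cells with the loop of Henle, so the stalk group may hold cells of a neighbouring segment. With clusters in place of the gate, the tip to stalk difference in Ret was 3.27 (adjusted p of 5.7e-08, edgeR). The part of tip-marker mixing in the stalk level was not tested.

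Some tip markers, among them Wnt11 and Sox8, are known to depend on RET, so tip identity and RET activity were not fully separate in that gate. Ureteric cells were therefore also ordered by stalk markers alone. With 0 of 8 stalk markers, Ret stood at 213 and 242 CPM. It was 74.6 and 52.4 CPM with 1 to 2 markers, 44.3 and 4.79 CPM with 3 to 4, and 5.20 and 1.98 CPM with 5 or more. Each library fell at each step, and the libraries stood furthest apart at 3 to 4 markers (25 and 27 cells). With the tip defined as ureteric cells with no stalk marker, the tip to stalk difference was 3.91 with an adjusted p of 2.5e-07 (edgeR).

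**Figure D3:**
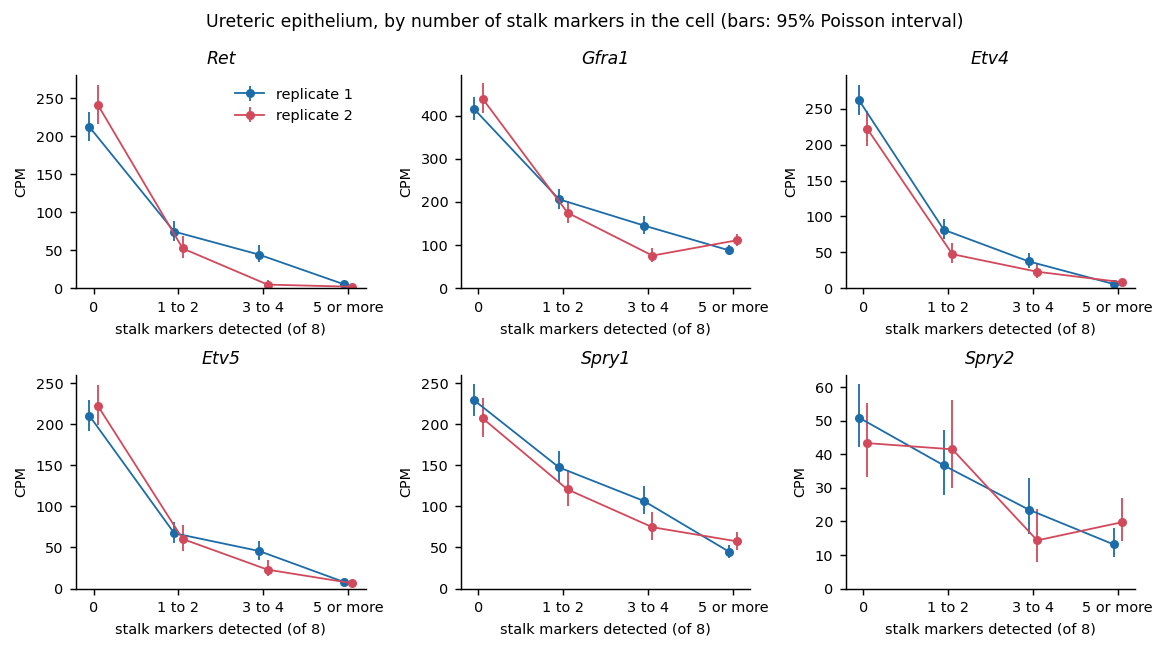
Level (CPM) of the 6 genes other than Gdnf in ureteric cells grouped by how many of 8 stalk markers they carry; each line is a library and bars are 95% Poisson intervals. Ret falls from 213 and 242 CPM to 5.20 and 1.98 CPM, Etv4 and Etv5 fall to at most 8.41 CPM, and Gfra1 remains at 88.0 and 111 CPM in the cells with the most stalk markers.

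Gfra1, the GDNF-binding co-receptor (ENSMUSG00000025089, chr19:58235581-58455946), overlaps the annotated genes Gm46650 and Gm10007, and the counting of shared reads was not given in the sources used here. Its level was 434 and 480 CPM in the tip, 228 and 200 CPM in undivided ureteric cells and 114 and 103 CPM in the stalk. Nephron progenitors held 51.4 and 56.4 CPM, early nephron 35.4 CPM in each library, podocytes 29.8 and 26.9 CPM, and stroma 7.61 and 8.04 CPM. Co-receptor RNA therefore extended to types with few or no Ret UMIs. The tip exceeded the stalk in Gfra1 by 1.997 ± 0.10 (SE) on the log2 scale (adjusted p = 3.8e-11, edgeR). In ureteric cells with 5 or more stalk markers Gfra1 was still 88.0 and 111 CPM, and 81.4% and 92.5% of those cells had a UMI of it.

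Ligand and co-receptor were also counted in the same cells. Every tip cell with a Ret UMI had a Gfra1 UMI, 30 of 30 and 28 of 28, but so did all tip cells without Ret. Among nephron progenitors with a Gdnf UMI, 66.2% and 68.5% also had Gfra1, against 55.0% and 56.3% of all progenitors. Among stromal cells with a Gdnf UMI the share was 13.1% and 12.7%, against 6.06% and 6.76% of all stroma. Within cortical stroma the gap was smaller, at 12.6% and 13.5% against 8.82% and 11.7% of all cortical stromal cells. Deeper cells show both genes more often, and the part of depth in these shares was not tested. Gfra1 was lower in stroma than in nephron progenitors by -2.84 ± 0.12 (SE) on the log2 scale, with an adjusted p of 2.7e-14 (edgeR quasi-likelihood test).

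Etv4 (ENSMUSG00000017724, chr11:101769747-101785310), a target of RET and FGF signalling, held 263 and 232 CPM in the tip and 23.9 and 16.8 CPM in the stalk. Outside the ureteric epithelium it was 52.0 and 70.9 CPM in the loop of Henle, 53.3 and 58.2 CPM in nephron progenitors and 42.9 and 47.9 CPM in early nephron. The stroma had 12.01 and 14.5 CPM. Thus progenitors lay above the stalk, and the ranges of loop and progenitors overlapped. The Etv4 difference of tip from stalk was 3.51 ± 0.20 (SE) on the log2 scale, with an adjusted p of 2.6e-10 (edgeR quasi-likelihood test).

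Its close relative Etv5 (ENSMUSG00000013089, chr16:22381313-22439570) held 211 and 234 CPM in the tip, 61.1 and 70.9 CPM in the loop of Henle and 24.9 and 16.2 CPM in the stalk. Early nephron had 45.3 and 40.8 CPM, nephron progenitors 33.2 and 30.6 CPM, and stroma 25.3 and 23.2 CPM. Immune cells, in which Etv4 rested on 5 and 1 UMIs, held 26.7 and 28.8 CPM of Etv5. The tip to stalk difference of Etv5 was 3.32 ± 0.19 (SE) on the log2 scale (adjusted p = 3.3e-10, edgeR). In cells with 5 or more stalk markers the Etv4 level was 5.89 and 8.41 CPM and the Etv5 level 7.97 and 6.43 CPM. An Etv4 UMI came with an Etv5 UMI in 28 of 28 tip cells of replicate 1 and 29 of 31 of replicate 2, against 96.7% and 93.9% of all tip cells with an Etv5 UMI.

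Spry1 (ENSMUSG00000037211, chr3:37639947-37644599), the Sprouty gene known to limit RET in the bud, was widespread. It held 238 and 212 CPM in the tip, 146 and 151 CPM in undivided ureteric cells and 75.4 and 66.0 CPM in the stalk. Stroma, which had almost no Ret, held 134 and 124 CPM, and nephron progenitors 51.4 and 41.7 CPM. Podocytes held 149 CPM in replicate 1 and 90.6 CPM in replicate 2, with counting intervals of 141 to 158 and 83.1 to 98.6 CPM, so the libraries differed there. Spry1 was higher in tip than stalk by 1.60 ± 0.17 (SE) on the log2 scale, with an adjusted p of 4.8e-07 (edgeR). It was higher in stroma than in nephron progenitors by 1.43 ± 0.14 (SE), with an adjusted p of 2.6e-08 (edgeR).

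Spry2 (ENSMUSG00000022114, chr14:105891947-105896819), another intracellular inhibitor of receptor tyrosine kinases, held 54.2 and 45.9 CPM in the tip and 48.2 and 44.9 CPM in the stroma, ranges that overlapped. The stalk held 18.2 and 19.4 CPM and nephron progenitors 13.6 and 12.3 CPM. Spry2 exceeded the stalk in the tip by 1.37 ± 0.20 (SE) and the progenitors in the stroma by 1.80 ± 0.12 (SE) on the log2 scale. The adjusted p were 2.2e-05 and 1.1e-10 (edgeR quasi-likelihood test). Medullary stroma had 24.7 and 21.6 CPM of Spry2.

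The 7 genes as a set can be read against all genes. Between tip and stalk, 6 of 7 were called, all higher in the tip, where 28.8% of all 15139 genes were called and 11.9% were higher in the tip. Gdnf was the exception, with too few UMIs on either side. Between stroma and nephron progenitors, 6 of 7 were called against a background of 56.1%, a comparison in which most genes were called, 28.3% higher and 27.8% lower in the stroma. Gdnf, Spry1 and Spry2 were higher in stroma, and Gfra1, Etv4 and Etv5 lower. The Etv5 difference was -0.45 ± 0.15 (SE) with an adjusted p of 0.016 (edgeR), and the call was lost in 6 of the alternatives, among them DESeq2 (adjusted p of 0.073) and clusters (0.058). Ret, on 9 and 4 stromal UMIs, was not called (adjusted p of 0.24, edgeR).

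Between tip and nephron progenitors all 7 genes were called, 6 higher and Gdnf lower in the tip, against 38.5% of all genes called and 17.3% higher in the tip. Apart from Gdnf and Ret, which rest on single-digit counts on 1 side, the tip was higher by 2.86 for Gfra1, 2.58 for Etv5, 2.06 for Spry1, 1.95 for Etv4 and 1.74 for Spry2 on the log2 scale. Their adjusted p ranged from 7.5e-15 to 7.1e-08 (edgeR). Between cortical and other stroma 3 of 7 were called, against 16.8% of all genes. They were Gdnf, Etv4 and Gfra1, each higher in cortical cells, where 7.81% of all genes were higher. Etv4 differed by 1.32 ± 0.25 (SE) with an adjusted p of 7.8e-04, and Gfra1 by 1.12 ± 0.23 (SE) with an adjusted p of 0.0017 (edgeR). The Gfra1 difference was 0.55 in replicate 1 and 1.79 in replicate 2, and the call was lost at a mitochondrial limit of 5% (adjusted p of 0.17, edgeR). Between cortical stroma and nephron progenitors 5 of 7 were called, against 50.7%, with Ret and Etv5 not called (adjusted p of 0.82 and 0.19, edgeR).

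**Figure D4:**
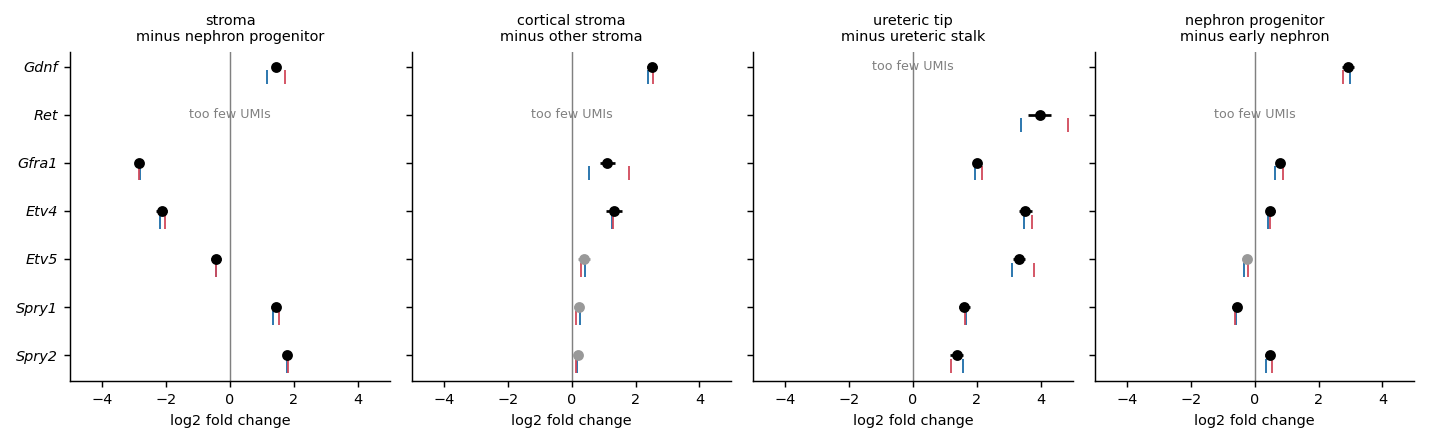
Log2 fold change of each gene in 4 comparisons from the edgeR fits. Circles are the fitted difference with its SE, black where the adjusted p was at most 0.05 and grey otherwise; ticks below are the values in replicate 1 (blue) and replicate 2 (red). Genes with single-digit UMIs in a library on both sides, or Ret outside the ureteric epithelium, are left blank. In the tip to stalk panel all 6 plotted genes lie above 0 in both libraries.

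Other genes of the pathway were read from 8 lists holding 68 genes, of which 61 passed the filter on low counts. Between tip and stalk, 19 were higher and 14 lower, where 11.9% of all genes were higher and 16.9% lower. With clusters in place of the gate the number lower was 7. Of 9 genes known to depend on RET in the tip, 8 were higher, with a list median of 2.22 on the log2 scale against -0.10 over all genes. Wnt11 and Sox8, at 4.80 and 4.54, had themselves been used to gate the tip. Cxcr4, a chemokine receptor and no gating marker, differed by 4.35 ± 0.50 (SE), adjusted p = 1.7e-06 (edgeR). The exception was Kif26b, a kinesin gene also known from the mesenchyme, which was lower in the tip by -1.58 ± 0.26 (SE) with an adjusted p of 9.5e-05 (edgeR). Of 6 further feedback inhibitors, 4 were higher and 0 lower in the tip, with Spry4 at 3.89 ± 0.33 (SE) and an adjusted p of 2.9e-08 (edgeR). Among 5 other RET ligands and co-receptors, 1 was higher, Nrtn, which encodes the ligand neurturin, by 2.67 ± 0.20 (SE) with an adjusted p of 6.3e-09 (edgeR), and 1 was lower, Gfra4. Kif26b, Nrtn and Gfra4 were named after their values were seen.

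The remaining lists gave small counts, to be read against the 11.9% of all genes that were higher and 16.9% that were lower in the tip. Of 12 RET adaptors and intracellular partners, 1 was higher and 3 lower. Of 7 regulators of Ret in the bud, 0 were higher and 3 lower. Of 9 regulators that raise Gdnf elsewhere, 1 was higher and 4 lower in the tip, of 5 that limit or place the signal 2 were higher and 1 lower, and of 8 FGF inputs 2 were higher and 1 lower. These lists had medians of -0.14, -0.62, -0.72, 0.94 and 0.37 on the log2 scale, against -0.10 over all genes, and nothing particular to these lists is read from them.

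Between stroma and nephron progenitors 21 of the 61 list genes were higher and 26 lower in the stroma, where 28.3% of all genes were higher and 27.8% lower. Of 9 regulators that raise Gdnf, 2 were higher in the stroma and 6 lower, and 1 of the 6 was a gating marker, lower in stroma by the choice of cells. This was Eya1, a transcriptional co-activator that marks the progenitors, at -5.06 ± 0.16 (SE) on the log2 scale. Of 8 FGF inputs, 1 was higher and 6 lower in stroma, with Fgf20, a ligand made by nephron progenitors, at -5.18 ± 0.40 (SE) and an adjusted p of 7.7e-09 (edgeR). Fgf8, a gating marker of the early nephron, stood at -3.81. Of the RET-dependent list, 3 were higher and 5 lower in the stroma: Wnt11, the Wnt ligand better known from the tip, stood at 4.98, and Cxcr4 at -4.84.

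Against the same 28.3% higher and 27.8% lower over all genes, the other lists in this comparison had 5 higher and 3 lower of 12 adaptors, 2 and 2 of 6 feedback inhibitors, 2 and 3 of 5 regulators that limit or place the signal, and 6 and 1 of 7 regulators of Ret. None of the 5 other ligands and co-receptors was called.

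Across the 12 fitted types, the genes with the profile most like each member were ranked by Pearson r of log2(CPM + 1), as a description over 12270 genes. Types of a library share that library, and types within a lineage resemble each other. Gdnf was closest to Tnc (r = 0.967), which encodes the matrix protein tenascin C, then Fgf2 (0.963) and Gm11627 (0.960). Ret was closest to Plekhs1 (0.987), the tip marker Slco4c1 (0.979) and Panct2 (0.977). For Gfra1 the closest were Moxd1 (0.950), Hmgcll1 (0.930) and Haglr (0.925). For Etv4 they were Lrrn1 (0.943), Slc1a3 (0.938) and Capn6 (0.936), and for Etv5 Cdca7l (0.936), Panx1 (0.932) and 4930427A07Rik (0.927). Spry1 was nearest to Neo1 (0.970), Rhobtb3 (0.960) and Mmp14 (0.959). For Spry2 they included Susd4 (0.923) and Igsf3 (0.910). No gene was among the 3 closest of more than 1 member.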

How the data were processed

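The deposited values are UMI counts per gene and barcode in unfiltered matrices. Per the file headers these were written by Cell Ranger 4, and the submitters' processing notes name Cell Ranger 6.0.1 and mm10. Per the labels' protocols, the libraries were 10x Chromium 3′ libraries. Member coordinates come from RefSeq's GRCm38.p6 table. A marker counted in a cell at 1 UMI per 10000. A type needed at least 3 of its markers and a lead of 1 over the next type. Tip, stalk, cortical and medullary gates needed at least 2 of their own markers. They also needed more of these than of the opposing gate's markers (tip against stalk, cortical against medullary). These limits were set after the marker counts were seen. No doublet caller was used beyond the gate, which left out cells of equal marker counts for 2 types. Scrublet was an alternative, removing 310 and 212 barcodes. Clusters of the same cells put 60 of 63 tip cells and 141 of 178 stalk cells in clusters of the same name, and 35 stalk cells with loop of Henle.

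UMIs were summed per library and type and fitted with edgeR 4.0.16 in R 4.3.3 (TMM, filterByExpr, quasi-likelihood, library as a block because types of a library share a sample). The fit had 24 columns and 11 residual degrees of freedom; a second, of 26 columns, divided the stroma. A call was an adjusted p of at most 0.05. Intervals are 95% (exact Poisson, binomial or conditional) and cover counting error only, and the limit for a count of 0 is 3 counts. On simulated stroma and progenitor sums of 15139 genes, 62 of 100 genes changed by 1 on the log2 scale were called and 89 of 100 changed by 2, with 12 false calls among 14938. The simulated dispersion (spread between libraries beyond counting error) was 0.02, above the fitted common value of 0.00414. These rates therefore do not describe the real comparison. The members and lists were chosen with earlier results of these data known. Named list genes were the 5 with the largest called change in each of the stroma to progenitor and tip to stalk comparisons that moved alike in both libraries, plus Wnt11 and Cxcr4. For each member, the 3 genes of most similar profile with at least 10 CPM in a type were also named. A few genes that these rules name are not reported here.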

Additional observations from a re-analysis of the deposited data

How the results depend on the processing

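Over the alternatives run, the Gdnf difference of stroma from nephron progenitors ranged from 1.04 (mitochondrial limit of 5%) to 1.57 (clusters) on the log2 scale, and was 2.30 with cortical stroma only. It was called in each fit with a test, with DESeq2 giving an adjusted p of 0.001. Leaving out a replicate gave 1.16 to 1.73 for Gdnf and 3.36 to 4.86 for Ret, values with no test. Without the replicate block they were 1.43 and 3.85. The Ret difference of tip from stalk ranged from 3.20 (any UMI of a marker) to 4.24 (DESeq2) and was called in each fit that could be made. A stricter gate, a mitochondrial limit of 5%, a tip from Adamts18, Ros1 and Slco4c1 alone and a limit of 50000 UMIs each left fewer than 20 tip or stalk cells in a library, so none gave that difference. Clusters gave 7 list genes lower in the tip, not 14. The 5% limit gave 4267 genes called between progenitors and early nephron, not 7122, and 1415 between cortical and other stroma, not 2570. Thinning moved all 5 shares of cells. No direction reversed among called differences. Of the other values compared, 683 were counted as unchanged, 17 lost a call and 4 gained one. The 683 include values with a replicate left out. These had no test and counted as unchanged unless a called difference reversed. The gates on any UMI and with a lead of 2 markers and the limit of 50000 UMIs were chosen after seeing the data. With 30 and 33 tip cells, depth limits the tip values, and Ret outside the ureteric epithelium rests on too few UMIs to compare types.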

Other observations

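Barcodes of 1 to 100 UMIs, which hold free RNA rather than cells, carried all 7 genes. Gdnf stood there at 10.8 and 8.02 CPM and Ret at 7.67 and 3.32 CPM. In the same barcodes Gfra1 was at 20.5 and 18.0 CPM, Etv4 at 29.8 and 24.1 CPM and Etv5 at 26.1 and 29.3 CPM. Spry1 was at 62.5 and 47.9 CPM and Spry2 at 26.7 and 24.6 CPM. The Gdnf level was above that of each fitted type other than stroma and nephron progenitors, and the Ret level above that of each fitted type other than the ureteric groups. Medullary stroma (8.41 and 5.93 CPM of Gdnf) and stroma with 0 cortical markers (6.98 and 5.28 CPM) were also below the free Gdnf level. The Etv5 level was close to that of immune cells (26.7 and 28.8 CPM) and above that of stroma (25.3 and 23.2 CPM) and stalk (24.9 and 16.2 CPM), and the Etv4 level was above that of the stalk (23.9 and 16.8 CPM), stroma (12.01 and 14.5 CPM) and cortical stroma (17.7 and 21.5 CPM). Gfra1 there was above the stroma (7.61 and 8.04 CPM), and both Sprouty genes above nephron progenitors (51.4 and 41.7 CPM of Spry1, 13.6 and 12.3 CPM of Spry2). Free Spry2 was also above the stalk (18.2 and 19.4 CPM). In nephron progenitors without Cited1, Etv4 (17.4 and 21.0 CPM) and Etv5 (20.4 and 14.6 CPM) were below their free levels. Gfra1 in those cells (16.9 and 19.3 CPM) was below its free level in replicate 1 and slightly above it in replicate 2. The part of free RNA in these cell type levels was not tested.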
